A study of Caenorhabditis elegans with 2 samples.

Results

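The genes described here are 60 members of the Notch pathway, the REF-1 family and the wider basic helix-loop-helix (bHLH) class of Caenorhabditis elegans, out of 19973 protein-coding genes on the 6 nuclear chromosomes. They were taken from a list of names with no cut on a measured value, but the list was chosen with earlier results of these data known. The list holds 6 REF-1 family genes, 8 Notch ligands and co-ligands, 2 receptors and 7 genes for proteases of receptor cleavage or their subunits. It also holds 2 nuclear effectors, 3 negative regulators and 32 other bHLH genes, and all 60 were found in the gene models. Each was examined for binding of the REF-1 protein, measured by chromatin immunoprecipitation and sequencing (ChIP-seq), from 5000 bp upstream of the gene start to the gene end.

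In Notch signalling, a ligand on one cell leads to proteolytic cleavage of the receptor on its neighbour, and the freed intracellular domain enters the nucleus, where it joins a CSL-type DNA-binding protein (LAG-1 in the worm) and a Mastermind-like coactivator (SEL-8). REF-1 is the founder of a nematode family related to the Hairy and Enhancer of split repressors, whose members carry a pair of bHLH domains. Several family genes are known to be switched on by Notch signalling in cells of the early embryo. Proteins of the bHLH class bind E-box sequences, and many of them direct the fate of neurons and muscle or answer to nutrients and oxygen.

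The samples formed 1 group of 2 biological replicates. Both were whole midembryos (3 hours, obtained by bleaching) of strain RW12224, in which TY1, EGFP and 3xFLAG had been inserted by CRISPR into the ref-1 gene itself on chromosome II, and an anti-GFP antibody precipitated chromatin sonicated to between 200 and 800 bp. All embryos carried the tag, the tissue was a mixture of every cell type of the embryo, and no second condition was compared. The deposited lists are on the ce11 assembly. A conservative set of 675 peaks and an other thresholded set of 653 peaks for the pair had passed the authors' threshold on the IDR (irreproducible discovery rate). So had each replicate's own set of 344 (replicate 1) and 405 peaks (replicate 2). The IDR is small where a peak ranks consistently high in a pair of inputs. A ranked list of 72151 candidates stands behind the conservative set, and each replicate has a ranked list of its own. The sources do not state which inputs were compared for a replicate's own lists, so a score or rank in them describes that list and is not a measure against the other replicate. Each peak has a score, which follows the global IDR and is limited to 1000, and a signal on the authors' own scale. A peak was placed by its summit, its position of highest signal. Ranks here run from 1 for the highest score. The lowest score in the conservative set was 830. The depth of the libraries is unknown, and peaks are not replicates.

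The 3 windows of 201 bp given first are those around conservative summits, because they hold every member's site in the conservative set, each read 5′ to 3′ on ce11 from the RefSeq genome. The window in the first intron of dos-1, chrIII:9104127-9104327 on the minus strand, has the tRNA gene WBGene00014624 in capitals. The window upstream of hlh-27, chrII:5543583-5543783 on the plus strand, has the SL2 RNA gene sls-2.2 in capitals. The window in an intron of sel-8, chrIII:3620830-3621030 on the minus strand, has no capitals because it holds neither a small RNA gene nor any of 4 motifs searched on both strands. These were the palindromic E-box CACGTG, its variant CACGCG, the N-box form CACNAG and the LAG-1 site, which is ATGGGAA or, with the other permitted first base, GTGGGAA.
dos-1: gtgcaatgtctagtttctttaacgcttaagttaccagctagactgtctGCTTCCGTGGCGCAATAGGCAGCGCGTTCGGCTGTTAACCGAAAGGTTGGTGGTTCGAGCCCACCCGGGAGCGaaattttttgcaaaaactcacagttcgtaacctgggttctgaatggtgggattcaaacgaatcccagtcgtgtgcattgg
hlh-27: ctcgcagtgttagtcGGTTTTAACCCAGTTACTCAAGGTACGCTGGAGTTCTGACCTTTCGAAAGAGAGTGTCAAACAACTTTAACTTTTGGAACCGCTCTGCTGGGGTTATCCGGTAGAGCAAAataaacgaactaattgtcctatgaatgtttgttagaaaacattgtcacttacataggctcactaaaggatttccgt
sel-8: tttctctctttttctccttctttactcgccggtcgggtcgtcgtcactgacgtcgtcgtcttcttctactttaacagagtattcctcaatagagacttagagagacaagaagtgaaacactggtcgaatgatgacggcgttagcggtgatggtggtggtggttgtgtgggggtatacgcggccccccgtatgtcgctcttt

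Below the threshold, 4 windows show what lies under promoter-proximal or intronic candidates of 4 members, a bHLH-zip gene, a negative regulator, the CSL gene and ref-1 itself, all on the plus strand, with the motifs named above in capitals. The mdl-1 window, chrX:6742158-6742358, holds CACGTG. The sel-10 window, chrV:13819144-13819344, holds CACGCG read on the opposite strand. The lag-1 window, chrIV:6097185-6097385, holds the LAG-1 site on the opposite strand and a match to CACNAG, on both sides of a run of CA repeats. The window upstream of ref-1, chrII:10217835-10218035, holds none of the 4 motifs.
mdl-1: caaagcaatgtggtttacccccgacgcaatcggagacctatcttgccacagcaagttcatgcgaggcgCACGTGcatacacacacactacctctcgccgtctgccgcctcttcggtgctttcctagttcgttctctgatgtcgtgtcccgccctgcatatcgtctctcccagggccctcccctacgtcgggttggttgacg
sel-10: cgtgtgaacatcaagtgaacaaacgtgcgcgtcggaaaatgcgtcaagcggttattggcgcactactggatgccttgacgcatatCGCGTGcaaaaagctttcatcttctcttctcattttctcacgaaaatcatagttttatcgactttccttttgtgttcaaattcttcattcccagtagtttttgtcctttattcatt
lag-1: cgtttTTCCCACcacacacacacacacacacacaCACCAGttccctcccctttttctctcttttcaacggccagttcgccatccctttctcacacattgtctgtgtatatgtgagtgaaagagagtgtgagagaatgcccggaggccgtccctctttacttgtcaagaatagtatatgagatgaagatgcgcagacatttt
ref-1: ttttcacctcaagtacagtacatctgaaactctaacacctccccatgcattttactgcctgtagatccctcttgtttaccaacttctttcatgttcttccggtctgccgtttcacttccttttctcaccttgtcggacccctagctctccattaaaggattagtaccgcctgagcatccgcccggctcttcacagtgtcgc

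Of the 60 members, dos-1, hlh-27 and sel-8 had a conservative summit, which is 3 genes or 5%, against 989 of 19973 protein-coding genes (4.95%). The share of members was thus at the background. The same 3 members carried a summit in the other thresholded set (5%, against 4.88% of protein-coding genes). In replicate 1's own set dos-1 and hlh-27 had one (3.33%, against 2.61%), and in replicate 2's own set dos-1 alone (1.67%, against 3.18%). None of the 60 members had a conservative summit in the promoter window, defined as 1000 bp upstream to 200 bp downstream of a transcript start, where 284 protein-coding genes (1.42%) had one. With 60 genes, that background share corresponds to less than 1 gene.

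All 10 entries of the 4 thresholded sets in the members' windows lay distal to the promoter window. The 4 at dos-1 were 284 to 317 bp downstream of the start, so with a wider promoter of 2000 bp upstream and 500 bp downstream 6 of the 10 were distal and 1 member had a conservative promoter summit. The 10 comprised 4 entries at dos-1, 4 at hlh-27 and 2 at sel-8. Most were the same peak listed again in another set from the same replicates, so they are not 10 separate sites. The distal share over all thresholded summits was not determined. Their intervals and values follow by gene.

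The gene dos-1 (III:9103943-9106805, plus strand) encodes a protein with the DOS motif, a co-ligand type of Notch ligand that works beside the DSL ligands. It was the only member present in all 4 thresholded sets. Its conservative peak (III:9104089-9104364) had its summit at 9104227 in the first intron, 284 bp downstream of the gene start, with a score of 1000, a signal of 124.4 and rank 368. In the replicates' own sets the peak had a signal of 59.5 and a score of 1000 in replicate 1 (summit at 9104260), and a signal of 64.3 and a score of 898 in replicate 2 (summit at 9104227), so both replicates placed a summit within the same tRNA gene. That gene, for an asparagine tRNA (III:9104207-9104279, minus strand), lies in the intron against the direction of dos-1 and is 73 bp long. The summit fell on its base 53, and the core of the B box (GGTTCGA), an internal promoter element of tRNA genes, began at base 52. The B-box core is found in 395 of 612 tRNA genes (64.5%). Of 20 asparagine tRNA genes, 18 have this same sequence and 7 of the 20 had a conservative summit within 100 bp, so those bases alone do not tell the copies apart. Over the whole peak, 79.7% of 36-base words occur once in the genome. The upstream neighbour ZK507.1 had the same summit in its window.

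The gene hlh-27 (II:5539075-5540213, minus strand) is a REF-1 family gene, clustered with hlh-25 and hlh-26. Its conservative peak (II:5543545-5543820) had its summit at 5543683, 3470 bp upstream of hlh-27, with a score of 1000, a signal of 108.2 and rank 435. The summit fell on base 86 of the 110 bp of sls-2.2 (II:5543598-5543707, plus strand), which encodes an SL2 spliced leader RNA, the RNA that is trans-spliced onto downstream messages of operons. The nearest protein-coding start was that of ins-13, an insulin-like gene, 1181 bp away, and C17C3.24 had the summit in its window as well. Replicate 1's own set held the peak with a signal of 50.8 and a score of 922. Replicate 2's own ranked list held it with a signal of 58.5 but a score of 81, at rank 4495, and the nearest summit of replicate 2's own thresholded set lay 118156 bp away. The other thresholded set of the pair added an entry with its summit at 5543887, 204 bp from the first and with a signal of 36.4. That entry had a score of 1000 in the other set, but the lowest score of 25, at rank 39790, in the ranked list behind the conservative set. Of the 18 annotated sls-2 genes, 2 had a conservative summit within 100 bp, and none of the others has the sequence of sls-2.2. Over the whole peak at sls-2.2, 78.4% of 36-base words occur once in the genome.

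The gene sel-8 (III:3612951-3627142, minus strand) encodes the Mastermind-like coactivator of the Notch transcription complex. Its conservative peak (III:3620792-3621067) had its summit at 3620930, inside the long first intron, 6212 bp downstream of the gene start and 2399 bp upstream of the start of a shorter transcript. The score was 1000, the signal 110.8 and the rank 510. No tRNA, snoRNA or snRNA gene lay within 100 bp. The own ranked list of replicate 1 held it with a signal of 52.4 and a score of 800 at rank 515, and that of replicate 2 with a signal of 46.9 and a score of 44 at rank 8771, both short of the threshold. The nearest summits of the own thresholded sets were 120897 bp away in replicate 1 and 43470 bp away in replicate 2. The next best of the 20 candidates at sel-8 had a score of 124.

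**Figure D1:**
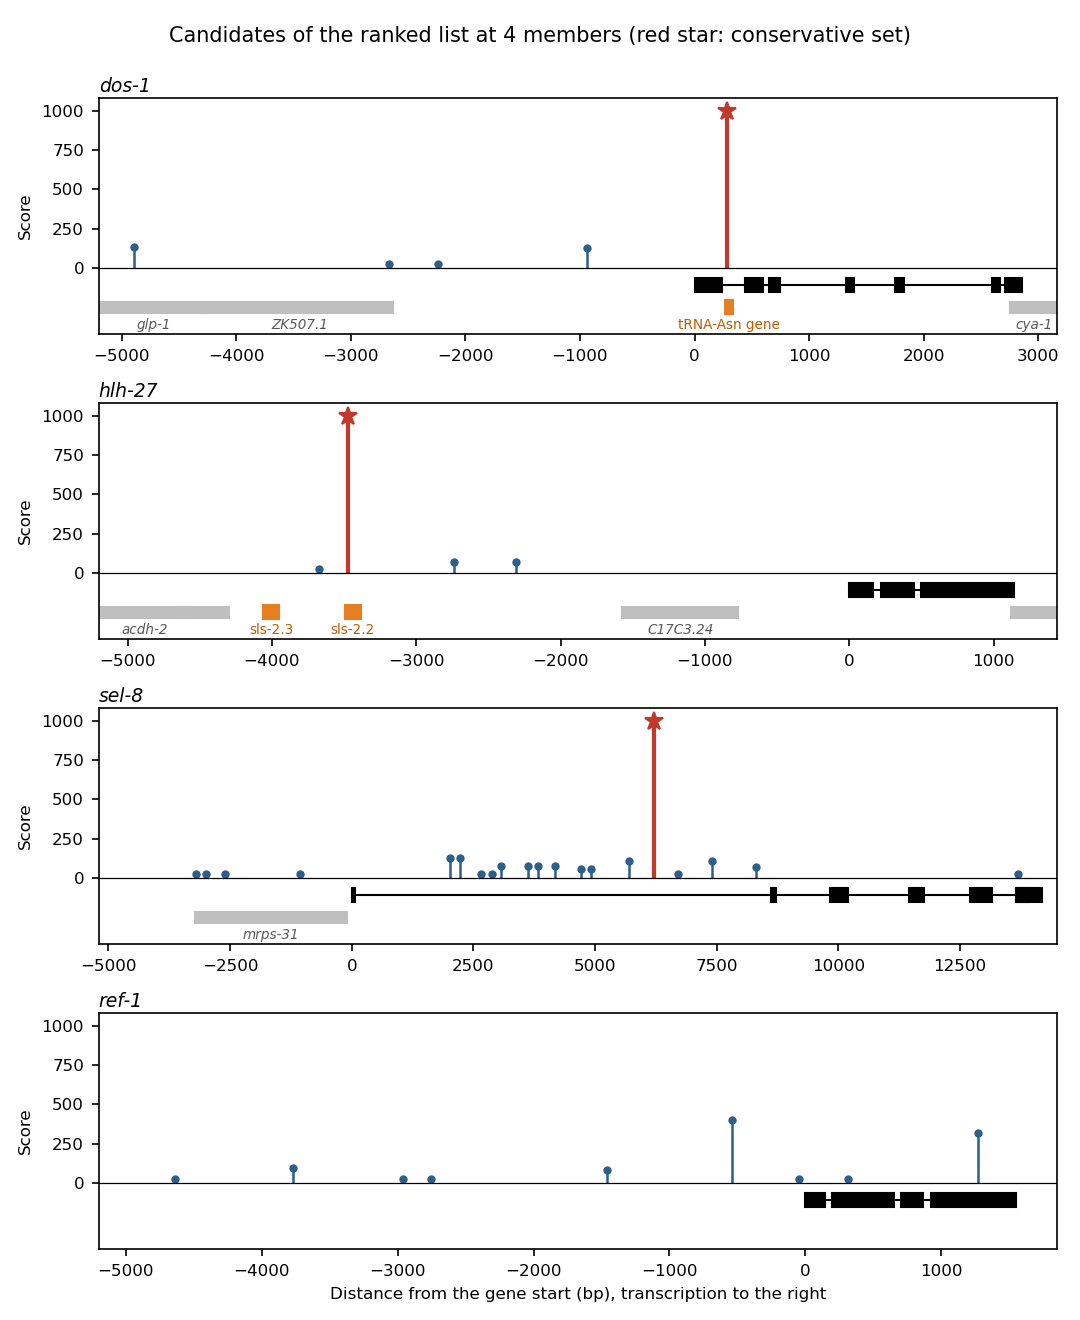
Candidates of the ranked list at dos-1, hlh-27, sel-8 and ref-1. The horizontal axis is the distance from the gene start in bp, the vertical axis the authors' score, red stars are conservative peaks and blue dots other candidates, black boxes are exons, grey bars neighbouring protein-coding genes and orange boxes tRNA or SL2 RNA genes. The dos-1 and hlh-27 stars stand on small RNA genes, the sel-8 star stands alone in an intron, and the highest candidate at ref-1 has a score of 398.

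Among the 675 conservative peaks, dos-1 was the 251st by signal, sel-8 the 303rd and hlh-27 the 313th, all near the median signal of 102.3 (quartiles 81.6 and 166.2). Conservative summits at tRNA genes numbered 218 with a median signal of 144.0, those at snRNA genes 11 with a median of 108.2, and those away from tRNA, snoRNA and snRNA genes 396 with a median of 87.1. By class, therefore, the dos-1 peak was below the median of tRNA-gene peaks and the sel-8 peak above the median of peaks away from small RNA genes.

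Only 2 of the 60 members' windows held a tRNA, snoRNA or snRNA gene, and both, dos-1 and hlh-27, had a conservative summit. Over all protein-coding genes, 450 of 1303 windows with such a gene had a summit (34.5%). Of the 58 members' windows without one, 1 had a conservative summit (sel-8), against 539 of 18670 protein-coding windows (2.89%). Counting only summits farther than 100 bp from these small RNA genes, 1 of 60 members (1.67%) and 584 of 19973 protein-coding genes (2.92%) had one. Longer windows held summits more often: 3.74% of protein-coding windows under 7000 bp, 4.38% of those from 7000 to 9000 bp, 7.19% of those from 9000 to 12000 bp and 10% of longer ones. The sel-8 window, at 19192 bp, was in the longest class with 7 other members that had none. Distance gave a like picture: the nearest conservative summit lay a median of 55620.5 bp from the members' starts (quartiles 25214.5 and 112340.2 bp), against 59403 bp for all protein-coding genes (quartiles 24148 and 122626 bp).

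In the ranked list, 52 of 60 members had at least 1 candidate (86.7%), against 17721 protein-coding genes (88.7%), and the members' windows held 410 candidates in all, with a median of 6 per member and 5 per protein-coding gene. The best rank of the 52 members had a median of 5943.5 (quartiles 2401 and 14255), against 9851 for protein-coding genes with a candidate (quartiles 3957 and 20878). The windows of genes with a candidate had a median length of 7538 bp for members and 7111 bp for all protein-coding genes. Including genes with no candidate, the medians were 6827 and 7027 bp, but the upper quartiles were 8978.5 and 8633 bp. Windows of 12000 bp or more numbered 8 among the 60 members and 1897 among the 19973 protein-coding genes. What window length contributes to the ranks was not tested. The rank limits that follow were chosen with earlier results of these data known. Among the first 1000 of the list, 5 members had their best candidate (8.33%, against 6.26%), as had 24 among the first 5000 (40%, against 26.8%). Candidates that far down were poorly reproducible. The best of adm-4, at rank 4636, had a global IDR of 0.247 and a score of 252, against a lowest conservative score of 830. The candidates from rank 39287 on, 32865 in number, all had the lowest score of 25, so their order says nothing about reproducibility. The best candidates of sel-12, mxl-1 and aph-1 were among them.

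**Figure D2:**
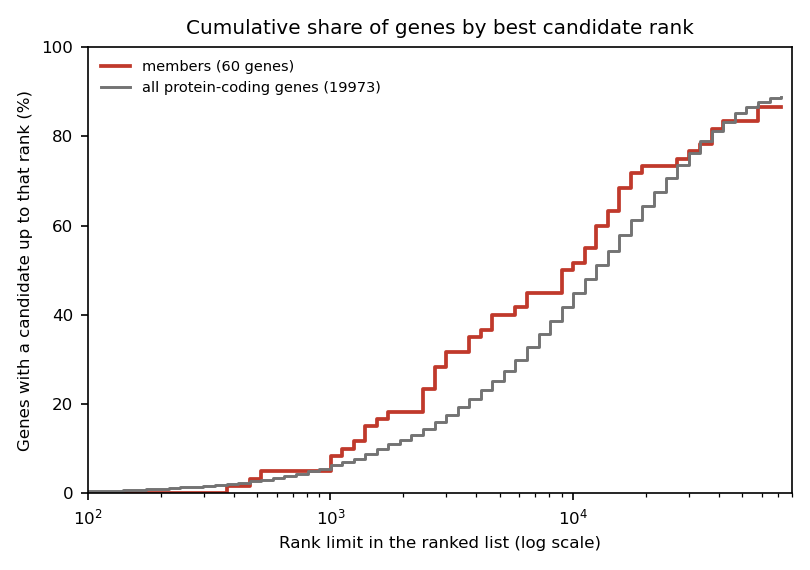
Cumulative share of genes with a candidate up to a given rank. The horizontal axis is the rank limit on a log scale, the vertical axis the percentage of genes, red the 60 members and grey all protein-coding genes. The lines run together up to about the first 1000 ranks, the members' line lies above after that (40% against 26.8% at rank 5000), they meet near rank 30002 (76.7% against 76.2%), and the members' line ends at 86.7%, against 88.7% for all genes.

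**Figure D3:**
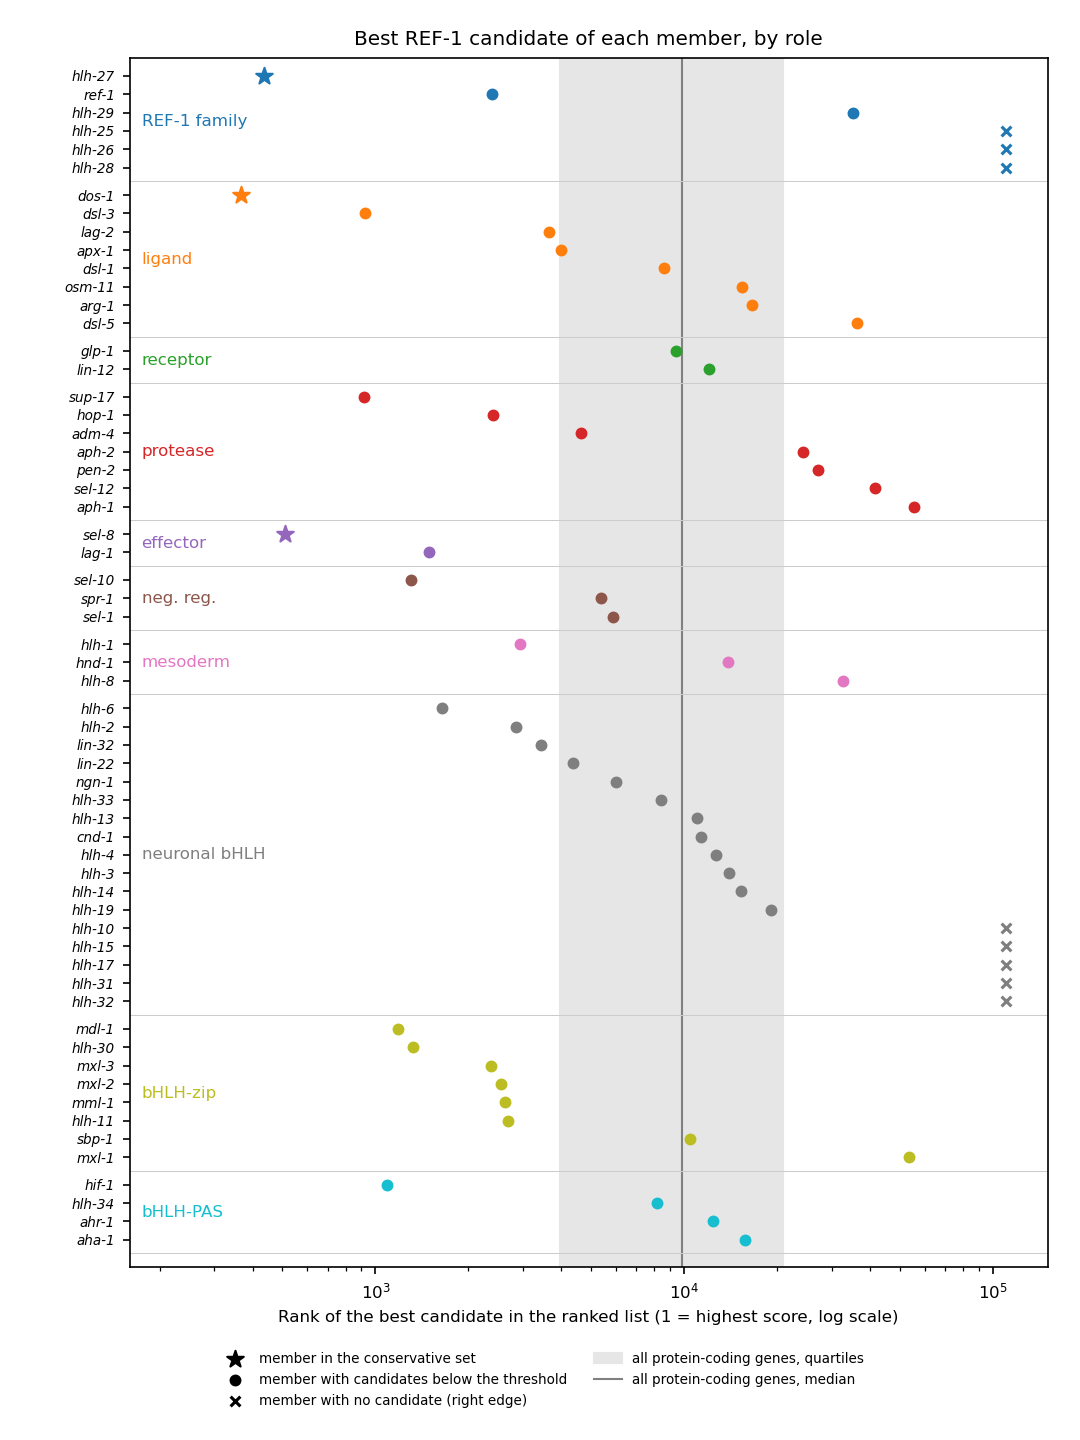
Rank of the best candidate of each member on a log scale, grouped by role. Stars are members with a conservative summit, dots members with candidates below the threshold and crosses at the right edge the 8 members with no candidate, while the grey band and line show the quartiles and median of all protein-coding genes. The 3 stars are hlh-27, dos-1 and sel-8, and 3 of the 6 REF-1 family members are crosses.

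Within the REF-1 family, hlh-27 and ref-1 were the only genes with a candidate above a score of 57. At ref-1 itself (II:10218471-10220022, plus strand), the gene that carries the tag, the best of 9 candidates (II:10217797-10218072) had its summit at 10217935, 536 bp upstream of the gene start and so in the promoter window. It had a score of 398, a signal of 51.8, a global IDR of 0.11 and rank 2392. The own list of replicate 1 gave it a signal of 25.5 at rank 21523 and that of replicate 2 a signal of 29.98 at rank 2999. A further candidate with a score of 318 lay in an exon 1268 bp downstream of the start. Neither reached the threshold, and the nearest conservative summit lay 29279 bp from the start of ref-1. The family gene hlh-29 had 1 candidate, 4841 bp upstream, with a score of 57 at rank 35257, nearer to the start of hlh-28 than to its own. No candidate was listed at hlh-25, hlh-26 or hlh-28. Of the 36-base words that start in a gene body, 29.2% occur once in the genome for hlh-25, 27.4% for hlh-27, 10.3% for hlh-28 and 10.3% for hlh-29, against 100% for hlh-26 and ref-1. For hlh-26 the share over its whole window was 82.8%. Treatment of reads with several matches was not given in the sources used here, and what this contributes to the empty windows was not tested.

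The other 5 members with no candidate were hlh-10, hlh-15 and the Olig-related genes hlh-17, hlh-31 and hlh-32. Of these, hlh-10 and hlh-15 had windows in which 100% of 36-base words occur once. The median over the 8 members with no candidate was 88.4%, against 99.2% for the 52 others. Over all protein-coding genes the medians were alike, 98.7% for genes with no candidate and 98.6% for the rest. Their lower quartiles differed in the same direction as the members' medians, 88.8% for genes with no candidate and 92.8% for the rest. The windows of the 8 members were also shorter, with a median of 6339 bp, against 7538 bp for the 52 others, as they were over all protein-coding genes, with 6568.5 bp for genes with no candidate and 7111 bp for the rest.

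Among the ligands, dsl-3, a gene of the DSL family to which the Notch ligands LAG-2 and APX-1 belong, followed dos-1. Its candidate (IV:1612232-1612507) lay in an intron 1393 bp downstream of the start, with a score of 786, a signal of 69.9 and rank 925. The own lists gave it a signal of 29.96 at rank 2012 in replicate 1 and of 43.04 at rank 856 in replicate 2. The ligands of the embryo lag-2 and apx-1 had best ranks of 3648 and 3993. The 8 ligands ranged to 36196 (dsl-5), with a median best rank of 6308.5, and all had at least 1 candidate.

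The receptor genes glp-1 and lin-12 had 14 and 17 candidates, none of them high in the list. The best at glp-1 lay in an intron 1280 bp downstream of the start, with a score of 152, a signal of 36.1 and rank 9402, and had signals of 20.7 in replicate 1 and 20.9 in replicate 2. The best at lin-12 had a score of 127 and rank 12059, in the promoter window. Both ranks were close to the median of 9851 over all protein-coding genes. The dos-1 gene begins 4245 bp beyond the end of glp-1, yet its tRNA-gene summit was not in the window of glp-1.

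The proteases that cut the receptor were led by sup-17, the worm ADAM10. Its best candidate, 3357 bp upstream, had a score of 790, a signal of 73.5 and rank 917, and was the highest of any member below the threshold, with dsl-3 next at 786. The own lists gave it a signal of 29.6 at rank 16630 in replicate 1 and of 46.0 at rank 857 in replicate 2. Its peak held CACGCG within 100 bp of the summit. Over the whole peak, 73.9% of 36-base words occur once in the genome for sup-17 and 78.4% for dsl-3. For 44 of the 52 members with a candidate, no 36-base word of the best peak was repeated. Of the presenilins, the catalytic subunits of gamma-secretase, hop-1 had a best rank of 2404 and sel-12 of 41350. The median best rank of the 7 genes for proteases or their subunits was 24310. The gene aph-1, for another gamma-secretase subunit, had a best rank of 55287. Its best candidate was tied at the lowest score of 25 with those of sel-12 and mxl-1, so the order of these genes says nothing about reproducibility.

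At the nuclear effector lag-1, which encodes the CSL protein, the best of 21 candidates (IV:6097147-6097422) lay in an intron 1878 bp downstream of the gene start. It had a score of 555, a signal of 63.6 and rank 1493, with signals of 25.97 in replicate 1 and 38.2 in replicate 2. It was 1 of 5 members' best candidates with the LAG-1 site within 100 bp of the summit. Together with sel-8 it made the nuclear effectors the role with the smallest median best rank (1001.5), over 2 genes with windows of 19192 and 20249 bp.

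The negative regulator sel-10 encodes an F-box protein of the FBXW7 type that targets the Notch intracellular domain for degradation. Its best candidate (V:13819106-13819381) lay in the promoter window, 117 bp upstream of the start, with a score of 612, a signal of 55.0 and rank 1305. The own lists gave it a signal of 33.7 at rank 999 in replicate 1 and of 31.0 at rank 2594 in replicate 2. The other 2, spr-1 of the CoREST type and sel-1 of protein degradation at the endoplasmic reticulum, had best ranks of 5372 and 5873.

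The bHLH-zip genes, relatives of MYC, MAX, MITF and SREBP and grouped here with hlh-11, had a median best rank of 2589 over 8 genes. At mdl-1, the worm MAD-like gene, the candidate (X:6742120-6742395) lay 93 bp upstream of the start with a score of 657, a signal of 60.0 and rank 1184, and its window holds CACGTG. The own lists gave it a signal of 32.8 at rank 14166 in replicate 1 and of 32.5 at rank 21357 in replicate 2. At hlh-30, the TFEB homologue, the best of 28 candidates (IV:4028399-4028674) lay 410 bp upstream of a transcript start, with a score of 605, a signal of 61.4 and rank 1325. Its signal was 38.04 at rank 706 in replicate 1 and 30.02 at rank 19031 in replicate 2. The genes mxl-3, mxl-2, mml-1 and hlh-11 followed with ranks between 2359 and 2684, then sbp-1 (10424) and mxl-1 (53476). The hlh-30 window was the longest of all members at 25159 bp.

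Of the 4 bHLH-PAS genes, hif-1, the hypoxia-inducible factor, came first. Its candidate (V:20784596-20784871) lay in an exon 2262 bp downstream of a start, with a score of 696, a signal of 64.7 and rank 1092. The own lists gave it a signal of 31.0 at rank 20931 in replicate 1 and of 35.4 at rank 4256 in replicate 2. The others, hlh-34, ahr-1 and aha-1, ranked from 8148 to 15717.

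The neuronal and lineage bHLH genes were led by hlh-6 of the Achaete-Scute type, with a score of 517 and rank 1646. Its best candidate lay 1488 bp upstream, nearer to the start of hal-3. Neither own list had a candidate there, though the inputs of the ranked list had signals of 27.7 and 32.2. The E-protein gene hlh-2, the partner of many bHLH proteins, ranked 2860, the atonal homologue lin-32 ranked 3430, and lin-22, a Hairy-related gene with 1 bHLH domain, ranked 4354. Over the 12 genes of the group with a candidate, the median best rank was 9677.5. Among the mesoderm genes, hlh-1 of the MyoD type had a best rank of 2946, hnd-1 of the Hand type 13881 and hlh-8 of the Twist type 32593.

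In the own lists, the best candidate of replicate 1 and the best of replicate 2 overlapped for 12 of the 51 members that had candidates in both (23.5%), against 3754 of 16569 protein-coding genes (22.7%). At the best candidate of the pair, 44 of 52 members had a candidate in replicate 1's own list (84.6%, against 75.4% of protein-coding genes with a candidate), 40 in replicate 2's (76.9%, against 76.3%), 36 in both (69.2%, against 59.9%) and 4 in neither (7.69%, against 8.23%). Over the 36, the signal was higher in replicate 2 for 26 (72.2%, against 67.3% of all genes) and higher in replicate 1 for 10, so the lean to replicate 2 was shared by all genes. In its own list, each replicate gave the members a smaller median best rank than all genes, 6854 against 8855.5 in replicate 1 and 4894 against 9003 in replicate 2.

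**Figure D4:**
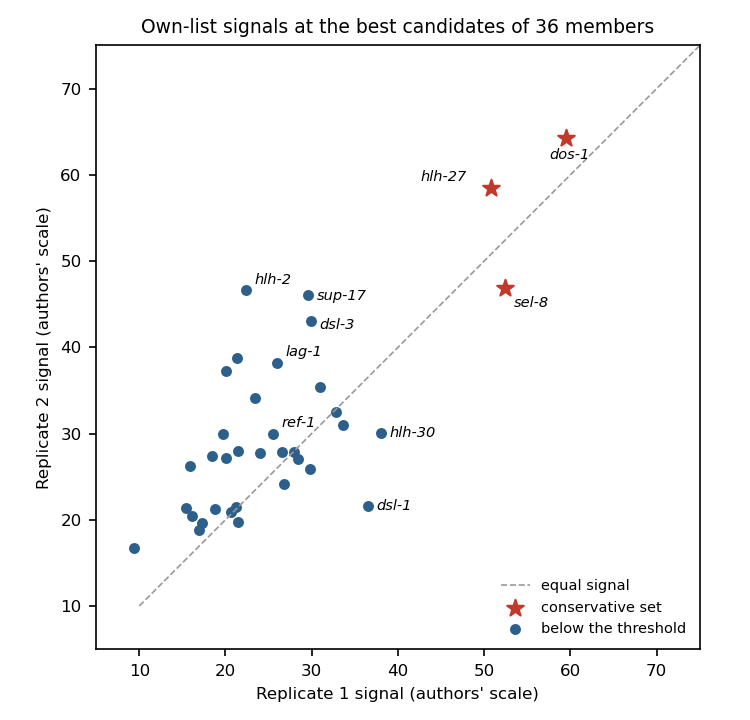
Signals of the 36 members with a candidate in both own lists at their best candidate, on the authors' scale, with replicate 1 on the horizontal and replicate 2 on the vertical axis. Red stars are conservative peaks, blue dots candidates below the threshold and the dashed line marks equal signal. The stars stand at 46.9 or above in both replicates, and 26 of the 36 points lie above the line.

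By place, 14 of the 52 members' best candidates were in the promoter window (26.9%), 20 farther upstream (38.5%), 9 in exons and 9 in introns (17.3% each), against 20.6%, 52.2%, 14.7% and 12.5% of the best candidates of all protein-coding genes. For 40 of the 52 the nearest protein-coding start was the member's own (76.9%, against 47.7% of the best candidates of all protein-coding genes, where 1 candidate can be the best of several neighbouring genes). Some candidate lay in the promoter window of 41 of the 60 members (68.3%, against 60.2%). None of the 52 lay on a tandem repeat, against 1.94% of the distinct best candidates of all protein-coding genes and 7.11% of the conservative summits. The best candidates of apx-1, dsl-1, sbp-1 and cnd-1 each had the same pair of input signals as another candidate, with its summit 199 to 247 bp away. At apx-1, sbp-1 and cnd-1 that other candidate had the higher signal of the pair.

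Within 100 bp of the summit, CACGTG was present at 5 of 52 members' best candidates (9.62%), namely mdl-1, hlh-11, apx-1, sel-1 and cnd-1, against 609 of 11331 distinct best candidates of all protein-coding genes (5.37%) and 4.74% of the conservative summits. CACGCG was present at 2, sup-17 and sel-10 (3.85%, against 4.17% of best candidates and 12.6% of conservative summits). CACNAG, the N-box form, was present at 8 (15.4%, against 22.9% and 31.9%). The general E-box CANNTG, which includes CACGTG, was present at 33 (63.5%, against 58% and 51.6%), and the LAG-1 site at 5, lag-1, hop-1, ngn-1, hlh-34 and dsl-5 (9.62%, against 6.86% and 7.7%). The median GC content of these windows was 44.3% for members, 40.8% for all best candidates and 46.3% for conservative summits. None of the 3 conservative summits of members had any of the 5 motifs in its window.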

How the data were processed

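Peak lists of 2 ChIP-seq replicates were used. Per the accompanying notes, the authors made them from filtered alignments and a control file on ce11. A control that the labels list as possible was not analysed here, and the aligner, peak caller and depth were not given in the sources used here. A deposited score follows the global IDR, the deposited signal is on a scale that the authors do not state, and the deposited ranked lists give the −log10 of the global IDR. Candidates were ranked by score, then IDR, then signal. The signals of the 2 inputs in the ranked list were used without a replicate number, and values given by replicate come from that replicate's own list. Genes were those of Ensembl release 115 (WBcel235, the same assembly), and sequences and tRNA products those of RefSeq. Motifs were searched on both strands in 201 bp windows. A tandem repeat was a window with at least 75% of bases matching at 1 shift of 8 to 100 bp. Python 3.11.15, pandas 2.3.3, NumPy 2.4.6 and matplotlib 3.10.9 were used, and the functions were tested on simulated data. No test was made: there is 1 group, and the members, lists and rank limits were chosen with earlier results of these data known. Genes named are members in any thresholded set, the REF-1 family, the 10 best-ranked members and the best-placed of each role, with others by count, range or a value chosen after it was seen. Alternatives varied the set, threshold, window, assignment rule, promoter and ranking.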

Additional observations from a re-analysis of the deposited data

How the results depend on the processing

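The count of 3 members with a conservative summit became 1 at a global IDR of at most 0.001 (dos-1), 1 without summits at tRNA, snoRNA and snRNA genes (sel-8) and 5 with 10000 bp upstream, which added dsl-1 and hlh-26. Leaving out a replicate gave 1 to 2. The 989 protein-coding genes became 380 at that IDR, 584 without small RNA summits, 523 with 1000 bp, 648 with 2000 bp and 1527 with 10000 bp upstream, 566 by nearest start, 278 with no upstream part (added after seeing the data), and 521 to 635 without a replicate. The nearest-start rule gave 3 members, with lin-32 in place of hlh-27. A promoter of 2000 and 500 bp held 1 member's summit (dos-1) in place of 0 and left 6 of the 10 entries distal. The median best rank of 5943.5 became 11941.5 with 1000 bp upstream, against 16786 for all genes. Without replicate 1 it was 4894, against 9003, and without replicate 2 it was 6854, against 8855.5. These are ranks in shorter lists, of 44673 and 45345 candidates, and do not compare directly with 5943.5. The members' median was the smaller one under all 7 alternatives. In all, 16 of 36 alternative values moved, and 20 stayed within 1.5 times, or for the median rank within 1386 ranks, the SD between the replicates' own lists. The medians without a replicate set that SD themselves, so their staying within it says little about stability. The causes of these changes were not tested. No paired analysis was possible because there is only 1 group. Depth is unknown, so the absence of a peak at a member is not shown to be an absence of binding.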

Other observations

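Further Notch pathway genes outside the list of 60 were examined in the same way. Of 18, 1 had a conservative summit, beside a share of 4.95% over all protein-coding genes. It was spr-4, a zinc finger gene found as a suppressor of presenilin mutants. Its peak lay in an exon 4251 bp downstream of the start, with a score of 841 and a signal of 85.1. The DOS-motif gene dos-3 had a summit in the other thresholded set (signal 77.9) and in replicate 2's own set (signal 60.7), in an exon and nearer to the start of zip-2. The 16 with a candidate had a median best rank of 7020.5, against 9851 for all protein-coding genes with a candidate. None of 10 genes known as Notch targets had a thresholded summit. With 10 genes and a background share of 4.95% in the conservative set, this count is no departure from the background. Their median best rank was 5909, led by sygl-1, a germline stem cell target of GLP-1, at 2485. None of 3 further helix-loop-helix genes had a thresholded summit either.

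The summits that other assignment rules add were at dsl-1, 9657 bp upstream with a signal of 79.8, at hlh-26, where it was the sls-2.2 summit 9941 bp upstream, and at lin-32, 2869 bp downstream of the start and past the gene end, on a tRNA gene with a signal of 191.8. The wider window also added a summit to sel-8, 8775 bp upstream with a signal of 76.2.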
